A study of Mus musculus with 2 samples.

Results

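Heterotrimeric G protein subunits and RGS regulators were described in J-RGCs, a type of mouse retinal ganglion cell marked by the adhesion gene Jam2, at postnatal day 6. Members were all rows of the count tables whose gene symbol names a G alpha, G beta or G gamma subunit or a numbered RGS gene, which gave 54 of 24015 listed genes. They comprised 16 alpha, 5 beta, 12 gamma and 21 RGS genes. The rule used names only and no measured value. The series held 1 group of 2 libraries, A and B, each from J-RGCs purified with magnetic beads and flow cytometry from a transgenic line in which the cells express green fluorescent protein. Each library pooled 5 to 6 animals of a separate litter. The sources used here do not give the promoter of the transgene, the genetic background or the sex of the animals. No other cell type, age or treatment was part of the series, and levels were compared between genes and between the 2 libraries.

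A G protein is a switch made of an alpha subunit, which binds GDP or GTP, and a beta and gamma pair. An activated receptor loads GTP onto the alpha subunit, and alpha and the beta-gamma pair then act on enzymes and channels until alpha hydrolyses its GTP. RGS proteins speed that hydrolysis and so shorten the signal. In the retina these proteins are best known from photoreceptors, where transducin couples opsins to a phosphodiesterase, and from ON bipolar cells, where Go couples the glutamate receptor mGluR6 to the channel TRPM1.

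The gene counts summed to 7916204 in library A and 13744313 in library B. Counts were scaled to a total of 1000000 per library (CPM), and levels of different genes were compared only as CPM per kb of summed exon length. All 15 ganglion cell markers stood above 10 CPM in both libraries, and summed to 13021 CPM in A against 18334 CPM in B. Of these markers all but Rbpms and Slc17a6 were lower in A. The log2 value of A over B was -0.49 for their sum, beside a median of -0.53 over all genes with at least 10 counts. Jam2 ran the other way, at 2344 CPM in A and 1203 CPM in B. Of other cell types, Müller glia markers were highest in sum, with 6 of 7 detected and 537 CPM in A against 477 CPM in B. Most of that sum came from Dkk3 (317 CPM in A and 223 CPM in B) and Glul (87.0 CPM in A and 129 CPM in B). Rlbp1 had 0 counts in A and 22 in B. The cycling list summed to 166 CPM in A against 79.4 CPM in B, with 4 of 4 detected, and the amacrine list to 126 CPM in A against 108 CPM in B, with 4 of 9. Horizontal, endothelial and astrocyte lists each summed to at most 30.5 CPM, with 3 of 4, 2 of 6 and 0 of 4 detected. The sums of the remaining lists are given beside the members they bear on. In such pooled samples, fewer cells of a type and less RNA per cell cannot be told apart.

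Transcripts of every kind of G protein part were read in J-RGCs. Of the 54 members 37 passed the detection level of 1 CPM in each library, which is 68.5% against 46.8% of all listed genes. In both libraries 13 members reached 100 CPM, 24.1% against 6.53% of all genes. The detected members were 11 of 16 alpha, 4 of 5 beta, 8 of 12 gamma and 14 of 21 RGS genes. All members together had a median of 21.5 CPM in A, with 27.2 CPM in B, beside 0.758 and 1.89 CPM over all listed genes. Per kb the highest gene of each class was Gnao1 among the alpha, Gnb1 among the beta, Gng3 among the gamma and Rgs4 among the RGS genes.

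**Figure D1:**
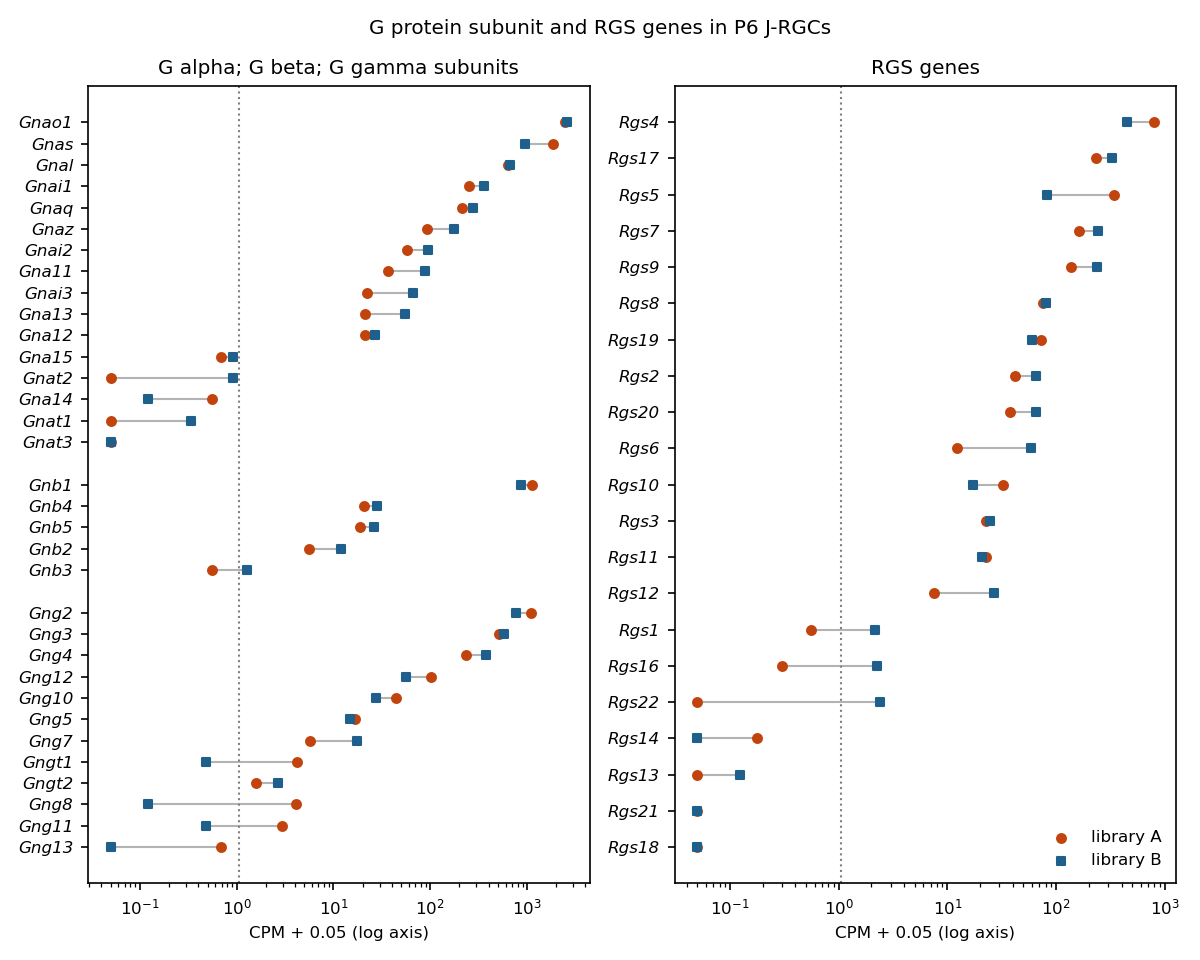
Level of each of the 54 members in library A (circles) and library B (squares), as CPM plus 0.05 on a log axis, ordered by mean within alpha, beta, gamma and RGS genes. The dotted line marks the detection level of 1 CPM. Gnao1 stood at 2460 CPM in A and 2586 CPM in B, while Gnat3, Rgs18 and Rgs21 had no count.

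The inhibitory alpha class was led by Gnao1, which encodes the alpha subunit of Go, the most abundant G protein of neurons. Gnao1 stood at 2460 CPM in A and 2586 CPM in B, nearly level between the litters on gene totals. Its log2 value of A over B was -0.07, and 0.31 with TMM scaling. Gnai1, an alpha subunit that inhibits adenylyl cyclase, stood at 252 CPM in A and 360 CPM in B. Its relative Gnai2, the form typical of many non-neuronal cells, stood at 57.6 CPM in A and 94.4 CPM in B. Gnai3, another inhibitory form, stood at 22.1 CPM in A and 65.6 CPM in B. Gnaz, whose product resists pertussis toxin, stood at 91.6 CPM in A and 176 CPM in B. All 5 genes of the Gi/o class were thus detected, and together they held 61.1% ± 7.05 of the alpha signal per kb (SD, n = 2 libraries). Per kb, Gnao1 exceeded Gnai2 11.4-fold, with a 95% interval of 4.37 to 29.5 from counting error and the spread between libraries that edgeR estimated over all genes. Gnai2 in turn was 0.206-fold of Gnai1 per kb, with an interval of 0.0843 to 0.504.

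Both genes for alpha subunits that stimulate adenylyl cyclase were detected. Gnas, a gene with imprinted alternative transcripts, stood at 1833 CPM in A and 954 CPM in B. Gnal, which encodes the Golf subunit known from olfactory neurons and striatum, stood at 637 CPM in A and 662 CPM in B. Gnas over Gnal was 2.14-fold per kb, with an interval of 0.772 to 5.95 that held 1, so the data did not separate them. In GENCODE M21 22.0% of the exon bases of Gnas are shared with genes on the other strand, among them Nespas, and its value is uncertain for that reason. These 2 genes held 35.4% of the alpha signal per kb in A and 21.6% in B.

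Of the Gq class, which activates phospholipase C beta, Gnaq and Gna11 were detected. Gnaq stood at 211 CPM in A and 274 CPM in B, and Gna11 at 36.8 CPM in A and 87.8 CPM in B. Gnaq exceeded Gna11 2.58-fold per kb, with an interval of 1.07 to 6.24, and the interval held 1 without library A, where the fold was 2.06. Gna14 (4 counts in A and 1 in B) and Gna15, a gene of blood cells (5 counts in A and 12 in B), were not detected. Of the remaining alpha class, whose members regulate the cytoskeleton, Gna12 stood at 21.0 CPM in A and 26.6 CPM in B, and Gna13 at 21.0 CPM in A and 54.2 CPM in B. Gna13 was 0.841-fold of Gna12 per kb, with an interval of 0.336 to 2.11. It was 0.532-fold by library A and 1.09-fold by library B. The order of this pair also turned round with coding length and without length correction.

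Per kb of exon the alpha genes ran in the order Gnao1 (228 ± 8.06), Gnas (125 ± 55.6), Gnai1 (97.6 ± 24.4), Gnal (58.1 ± 1.61), Gnaq (39.2 ± 7.12), Gnaz (37.1 ± 16.6), Gnai2 (20.1 ± 6.88), Gna11 (15.2 ± 8.81), Gnai3 (13.4 ± 9.42), Gna12 (6.96 ± 1.16) and Gna13 (5.85 ± 3.66), as mean CPM per kb with the SD over the 2 libraries. None of the 10 pairs of neighbours in this order was separated at the 95% interval. Gnao1 led in both libraries, whereas Gnas and Gnai1 exchanged places, Gnas lying second in A and Gnai1 second in B. Gnao1 over Gnas was 1.83-fold, with an interval of 0.640 to 5.25.

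The transducin alpha genes were near or at 0. Gnat1, of rods, had 0 counts in A and 4 in B, and Gnat2, of cones, had 0 in A and 12 in B. Gnat3, the gustducin gene of taste cells, had no count, which allows up to 0.379 CPM in A and 0.218 CPM in B at 3 counts. That limit covers counting error only, since amplified reads carry no molecular identifiers.

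**Figure D2:**
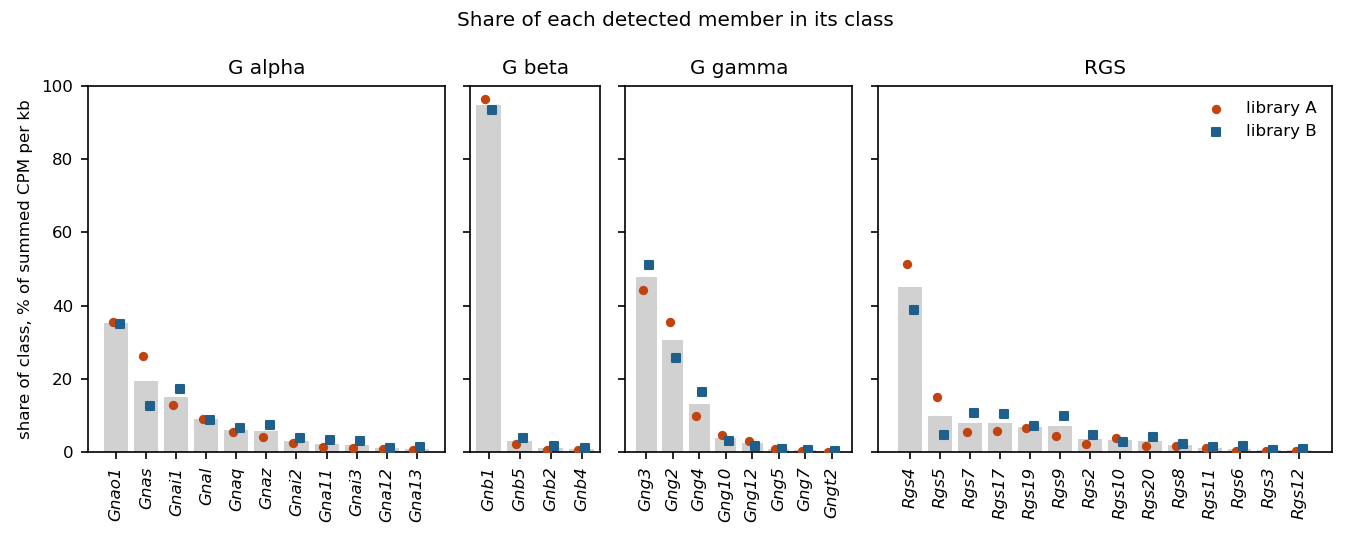
Share of each detected member in the summed CPM per kb of its class, in percent, with bars for the mean and points for library A (circles) and library B (squares). Gnb1 held 94.9% of the beta signal, Gng3 47.7% of the gamma signal, Rgs4 45.0% of the RGS signal and Gnao1 35.3% of the alpha signal.

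Among the beta subunits, Gnb1 stood nearly alone. It stood at 1131 CPM in A and 865 CPM in B, and held 94.9% ± 2.28 of the beta signal per kb (SD, n = 2). Gnb5, the divergent beta subunit that binds the RGS proteins of the R7 family in place of a gamma subunit, stood at 18.8 CPM in A and 25.9 CPM in B. Gnb4 stood at 20.6 CPM in A and 28.4 CPM in B, and Gnb2 at 5.56 CPM in A and 11.9 CPM in B. Gnb3, a subunit of cones and ON bipolar cells, had 4 counts in A and 17 in B and was not detected. Per kb, Gnb1 exceeded Gnb5 32.6-fold, with an interval of 12.04 to 88.0, and Gnb2 91.3-fold, with an interval of 30.4 to 274. Gnb1 over Gnb2 was 162-fold by library A and 58.1-fold by library B. Gnb5 over Gnb2 was 2.80-fold (0.960 to 8.19) and Gnb2 over Gnb4 1.33-fold (0.459 to 3.84), so those neighbours were not separated. Summed over its class, the beta signal was 246 ± 40.6 CPM per kb, against 647 ± 32.4 for alpha and 697 ± 12.1 for gamma genes. It was also the lowest of these 3 sums with principal transcript length (339 ± 53.6, against 1531 ± 42.0 for alpha and 741 ± 22.5 for gamma) and with coding length (1029 ± 171, against 4134 ± 195 for alpha and 8876 ± 611 for gamma).

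The gamma subunits, small lipid-anchored proteins, were led by Gng3, Gng2 and Gng4. Gng3 stood at 513 CPM in A and 579 CPM in B, Gng2 at 1104 CPM in A and 777 CPM in B, and Gng4 at 235 CPM in A and 380 CPM in B. Of the gamma signal per kb Gng3 held 47.7% ± 4.94, Gng2 30.7% ± 7.04 and Gng4 13.3% ± 4.63 (SD, n = 2). Gng3 over Gng2 was 1.55-fold per kb, with an interval of 0.568 to 4.24, and Gng2 led with coding length and without length correction, so which of them was higher was not settled. Gng3 shares 24.2% of its exon bases with Bscl2 on the other strand, and Gng2 20.4% with Gm48283, also on the other strand.

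The other detected gamma genes were lower. Gng10 stood at 43.7 CPM in A and 27.7 CPM in B, but shares 72.0% of its exon bases with the readthrough gene Gm20503 on the same strand, and its value is uncertain. Gng12, a broadly expressed subunit, stood at 102 CPM in A and 55.7 CPM in B. Gng5 stood at 16.8 CPM in A and 14.7 CPM in B, and Gng7, a partner of Golf in the striatum, at 5.68 CPM in A and 17.3 CPM in B. Of the 7 pairs of neighbours in the gamma order 2 were separated, Gng4 over Gng10 at 3.39-fold per kb (95% interval 1.35 to 8.49) and Gng12 over Gng5 at 2.94-fold (1.14 to 7.57).

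Gamma genes of other sensory cells gave few reads. Gngt2, the cone transducin gamma gene, stood at 1.52 CPM in A and 2.62 CPM in B and just passed the detection level. Gngt1, its rod counterpart, had 33 counts in A and 6 in B, and Gng13, of taste and ON bipolar cells, 5 in A and 0 in B. Gng8, known from olfactory neurons, had 32 counts in A and 1 in B, and Gng11 had 23 in A and 6 in B. The rod list, without its members of the G protein families, had 4 of 7 markers detected, and summed to 26.7 CPM in A against 27.9 CPM in B. Its genes did not run level. Nr2e3 and Pde6b (11.7 CPM in A and 5.31 CPM in B) were higher in A. Nrl, Sag (0.884 CPM in A and 7.06 CPM in B), Pde6a, Cnga1 and Rom1 were higher in B. The cone list had 1 of 6 detected, with 53.4 CPM in A and 21.0 CPM in B, nearly all from Cngb3, while Opn1mw and Pde6h had no count. The bipolar list had 4 of 8 detected, none without a count, and summed to 275 CPM in A against 126 CPM in B. The part of these cells in the reads of transducin and bipolar subunits was not tested.

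The RGS genes were led by Rgs4, a small R4 family member of neurons that acts on Gi/o and Gq subunits. It stood at 789 CPM in A and 453 CPM in B, and held 45.0% ± 8.90 of the RGS signal per kb (SD, n = 2). Rgs2, which prefers Gq, stood at 42.1 CPM in A and 64.7 CPM in B. Rgs4 exceeded Rgs2 13.6-fold per kb, with an interval of 5.39 to 34.4, at 22.0-fold by library A and 8.21-fold by library B. Rgs8, known from Purkinje cells, stood at 75.5 CPM in A and 81.0 CPM in B, and Rgs3 at 22.4 CPM in A and 24.7 CPM in B. On gene totals both differed by less than 0.2 on the log2 scale between the litters. With TMM scaling Rgs8 was higher in A by 0.28 and Rgs3 by 0.24 on that scale.

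Rgs5, an R4 member that marks pericytes, differed widely between the litters. It stood at 342 CPM in A and 82.4 CPM in B, 4.15-fold higher in A. The other 7 genes of the pericyte and smooth muscle list summed to 242 CPM in A and 101 CPM in B, with 6 detected and none without a count. Of these Pdgfrb stood at 51.9 CPM in A and 10.3 CPM in B, and Abcc9 at 165 CPM in A and 66.6 CPM in B, and Kcnj8 and Acta2 were also higher in A. The other 3 ran the opposite way, with Cspg4 at 11.1 CPM in A and 14.5 CPM in B, Des at 1.39 CPM in A and 2.69 CPM in B, and Myh11 at 0.126 CPM in A and 2.84 CPM in B. The part of pericytes in the Rgs5 reads was not tested. Rgs4 over Rgs5 was 4.30-fold per kb (95% interval 1.64 to 11.2). It was 3.39-fold in A alone, where the interval held 1, and 8.08-fold in B alone.

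All 4 R7 family genes, whose proteins pair with the Gnb5 product and act on Go, were detected. Rgs7 stood at 163 CPM in A and 244 CPM in B, and Rgs9, known from photoreceptors and striatum, at 137 CPM in A and 237 CPM in B. Rgs11, a partner of Rgs7 in ON bipolar cells, stood at 22.6 CPM in A and 20.7 CPM in B. Rgs6 stood at 12.3 CPM in A and 58.4 CPM in B. Per kb, Rgs7 exceeded Rgs11 6.55-fold, with an interval of 2.57 to 16.7. It exceeded Rgs6 9.58-fold, with an interval of 3.88 to 23.7, at 22.1-fold by library A and 6.96-fold by library B. The R7 family as a whole summed to 55.0 CPM per kb in A and 88.4 in B, beside 6.04 CPM per kb in A and 8.32 in B for Gnb5.

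The RZ family, which acts on Gz and other Gi/o subunits, was detected in full. Rgs17 stood at 232 CPM in A and 326 CPM in B, Rgs19 at 73.3 CPM in A and 60.5 CPM in B, and Rgs20 at 37.8 CPM in A and 64.7 CPM in B. Rgs17 over Rgs19 was 1.12-fold per kb (95% interval 0.461 to 2.73). Without length correction Rgs17 was higher, since its summed exons span 8298 bases against 2230 for Rgs19. Of the R12 family Rgs10, a small member also expressed by microglia, stood at 32.7 CPM in A and 17.0 CPM in B, and Rgs12, a large member with several domains, at 7.45 CPM in A and 26.7 CPM in B. Rgs14, of the same family, had 1 count in A and 0 in B.

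The remaining RGS genes, several of them typical of immune or other specialised cells, were not detected. They stood at no more than 0.505 CPM in A and 2.33 CPM in B. Rgs1, of lymphocytes and microglia, had 4 counts in A and 29 in B, Rgs16 had 2 in A and 30 in B, and Rgs13, of B lymphocytes, had 0 in A and 1 in B. Rgs18, of platelets and myeloid cells, and Rgs21, of taste cells, had no count in either library. Rgs22 had 0 counts in A and 32 in B. The microglia list had 7 of 10 markers detected and summed to 307 CPM in A and 373 CPM in B, with none without a count. The part of microglia in the reads of Rgs1 and Rgs10 was not tested. Of the 13 pairs of neighbours among the detected RGS genes, Rgs4 over Rgs5 alone was separated per kb.

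**Figure D3:**
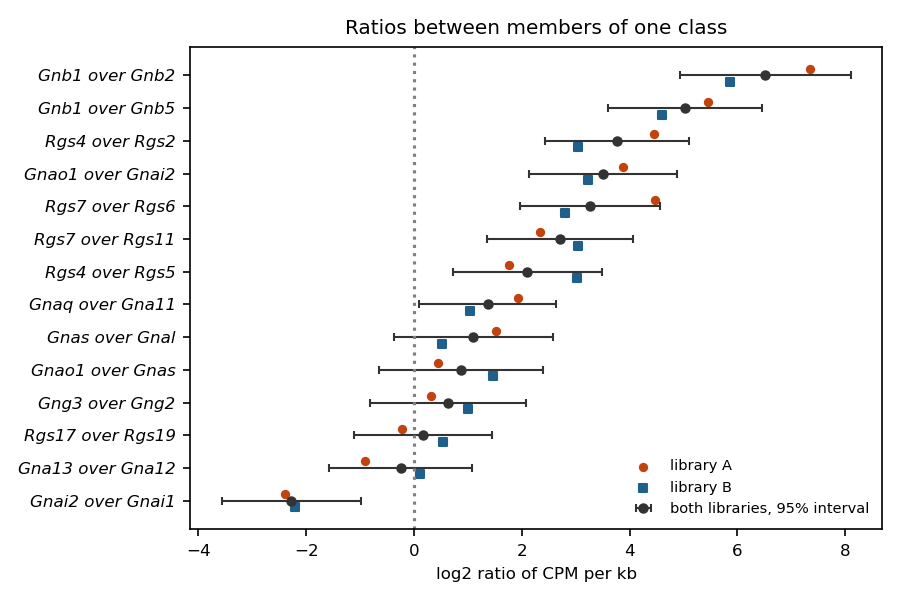
Log2 ratio of CPM per kb for 14 pairs of members, with both libraries and a 95% interval (black) and in library A (circles) and library B (squares) alone. Gnb1 over Gnb2 was largest at 6.51, and the intervals of Gnas over Gnal, Gnao1 over Gnas, Gng3 over Gng2, Rgs17 over Rgs19 and Gna13 over Gna12 held 0.

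Of 12 pairs of close relatives or partners compared per kb, 8 had an interval that excluded equal levels. These pairs were chosen with earlier results of these data known. For the highest over the next gene of each class, 2 of 4 intervals excluded equal levels, those of Gnb1 and Rgs4. Gnb1 over Gnb5 and Gng3 over Gng2 belong to both sets of pairs. The highest gene was chosen by its value, so its direction over the next is fixed by that choice. Over all 33 pairs of neighbours 4 were separated. Neighbours were ordered by the same values, so the direction within each of these pairs was fixed as well. The intervals were not adjusted for their number. Among all 22712 listed genes with an exon length, Gng3 ranked 43 by CPM per kb, Gnb1 71, Gnao1 77, Gng2 80 and Rgs4 85.

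Between the litters most members lay within 2-fold. Of the 46 members with at least 10 counts 31 did so on the log2(CPM + 0.5) scale, and 15, or 32.6%, were at least 2-fold apart, against 43.0% of all genes. Of these 4 were higher in A and 11 in B, against 10.3% and 32.6% of all genes. The median log2 value of A over B was -0.45 for these members and -0.53 for all genes. TMM scaling moved log2 values by 0.38 towards A, and by less for genes near the pseudocount. With it 17 members were at least 2-fold apart, against 38.6% of all genes. Of these 9 were higher in A and 8 in B, against 14.8% and 23.8% of all genes. The 4 higher in A on both scalings were Rgs5 and the low-count genes Gng8, Gng11 and Gngt1. The 8 higher in B on both scalings were Gnai3, Gng7, Rgs6, Rgs12 and the low-count genes Gnat2, Rgs1, Rgs16 and Rgs22. At 3-fold, without TMM, 8 members were apart against 23.3% of all genes, 4 higher in A against 5.66% and 4 higher in B against 17.6%. Gna11, Gna13 and Gnb2 were 2-fold higher in B without TMM alone, while Gnas, Gng10, Gng12, Rgs4 and Rgs10 were higher in A with TMM alone.

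Among detected members Rgs6 differed most, at 4.76-fold more CPM in B (A over B 0.210-fold, 95% counting interval 0.168 to 0.260). Rgs5 came next, with A over B at 4.15-fold (3.87 to 4.45), and then Rgs12, with A over B at 0.279-fold (0.208 to 0.368). With TMM Rgs5 differed more than Rgs6, at log2 values of 2.43 and -1.83. Gng8 was 55.6-fold higher in A, but rests on 1 count in B, with a counting interval of 9.28 to 2262. Rgs22 was at least 6.14-fold higher in B, and Gnat2 at least 2.30-fold, taking 3 counts for the library at 0 and no counting error for the other. These intervals compare the reads of 2 libraries and leave out the variation that separate amplification adds. Of the highest gene of each class, the log2 value of A over B was -0.07 for Gnao1, 0.39 for Gnb1, -0.18 for Gng3 and 0.80 for Rgs4.

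**Figure D4:**
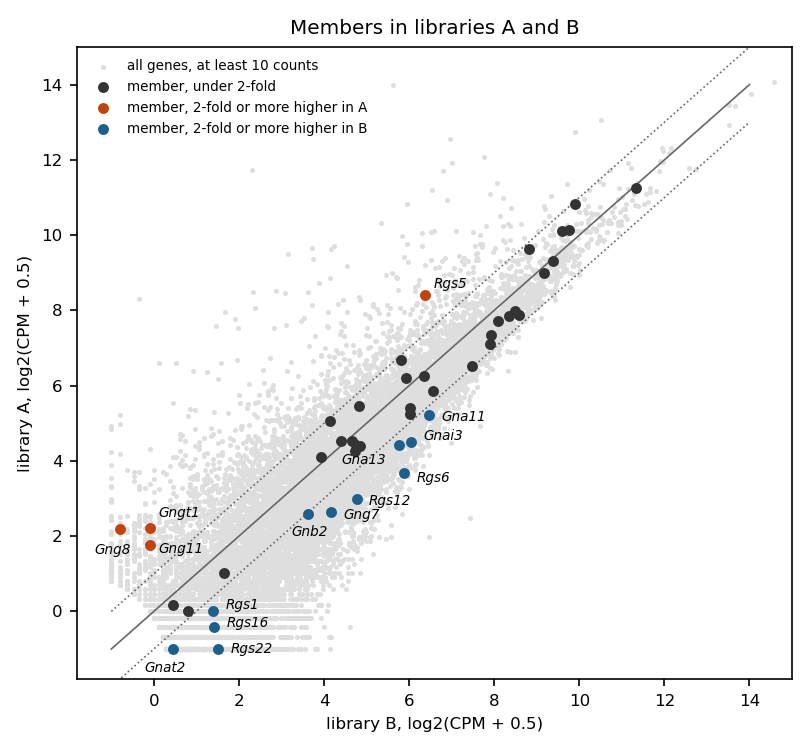
Level in library A against library B as log2(CPM + 0.5), for all 14107 genes with at least 10 counts (grey) and the 46 members among them. The solid line marks equal levels and the dotted lines 2-fold. The 4 members higher in A and 11 higher in B by 2-fold or more are named.

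Of 38 other genes of the pathway, 32 were detected. Adcy1, a calcium-stimulated adenylyl cyclase, stood at 1314 CPM in A and 1639 CPM in B, and per kb at 118 ± 18.3 it lay above the other 8 cyclase genes, the next being Adcy2 at 32.0 ± 13.3 CPM per kb. Adcy4 had 0 counts in A and 34 in B and was the 1 cyclase gene not detected. All 4 phospholipase C beta genes were detected, led by Plcb1 (524 CPM in A and 552 CPM in B) and Plcb4 (279 CPM in A and 304 CPM in B).

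Of the R7 anchors Rgs7bp, which tethers R7 proteins to the membrane, stood at 210 CPM in A and 242 CPM in B. The orphan receptor Gpr158, which binds Rgs7, stood at 77.6 CPM in A and 189 CPM in B. The photoreceptor anchor Rgs9bp (3 counts in A and 19 in B) and the ON bipolar receptor Gpr179 (6 counts in A and 19 in B) were not detected. All 4 GIRK channel genes, targets of beta-gamma, passed the detection level, but Kcnj3 stood at 184 CPM in A and 3.42 CPM in B, far apart between the litters. Kcnj5 stood at 10.9 CPM in A and 41.3 CPM in B, and Kcnj6 at 6.95 CPM in A and 21.5 CPM in B.

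All 6 receptor kinase genes were detected, but Grk1 was near the detection level, at 2.15 CPM in A and 3.57 CPM in B. Grk3, listed under its older symbol Adrbk2, stood at 40.8 CPM in A and 82.9 CPM in B, and Grk4 at 51.2 CPM in A and 38.5 CPM in B. Of the arrestins, which shut off phosphorylated receptors, Arrb1 stood at 98.7 CPM in A and 133 CPM in B and Arrb2 at 17.7 CPM in A and 14.3 CPM in B, while the rod and cone arrestins Sag (7 counts in A and 97 in B) and Arr3 (3 counts in each library) were not detected. Of 7 chaperones and activators 6 were detected, among them Ric8a, which folds Gi, Gq and G12 class alpha subunits, at 28.9 CPM in A and 27.6 CPM in B, and Ric8b, which serves Gs and Golf, at 43.7 CPM in A and 48.6 CPM in B.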

How the data were processed

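RNA was read from 2 libraries of sorted J-RGCs, prepared with the Nugen Ovation Ultralow V2 kit per the labels. Per gene symbol, the authors deposited raw counts of reads as whole numbers. HTSeq 0.6.1, TopHat2 2.0.10, Trimmomatic 0.32 and the build mm9 are named in the submitters' processing notes. Settings, annotation and strand use were not given in the sources used here, which leaves overlapping genes uncertain. Gene rows took 26.8% of all reads listed for A and 30.9% for B, and summary lines were kept out of totals.

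CPM was computed from gene totals. Exon lengths and overlaps came by symbol from GENCODE M21, on another build, so no coordinates were used, and all 54 members matched. Coding length was the longest coding sequence there, since no protein table was used. Ratios of mean CPM per kb were given 95% intervals from counting error and the trended dispersion of an intercept-only fit in edgeR 4.0.16 (R 4.3.3) over the 11272 genes kept by its filter, where the biological coefficient of variation was 0.507. With 1 group there was no contrast to test. The interval method was tested only on counts simulated with the same dispersion for all genes. That setting leaves out differences in dispersion between genes and error in exon length. Folds between libraries used a pseudocount of 0.5 CPM and genes with at least 10 counts. DESeq2 1.42.0 gave other size factors. Python 3.11.15 with numpy 2.4.6, pandas 2.3.3, scipy 1.17.1 and matplotlib 3.10.9 was used for the rest.

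The members, lists and pairs were chosen with earlier results of these data known. One marker of another cell type is not reported here. Every member detected at 1 CPM in both libraries is named with its values. The older symbol of Ric8a was matched through RefSeq synonyms after the files were seen.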

Additional observations from a re-analysis of the deposited data

How the results depend on the processing

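No paired analysis was possible because the series holds 1 group. The count of detected members stayed within 1.5 times of 37 at other thresholds and scalings, in either library alone and with totals that leave out Rn45s, Lars2 and Gm20594. Of the members at least 2-fold apart, 8 remained at 3-fold, against 23.3% of all genes, and 4 of them were higher in B, against 17.6%. Those higher in A numbered 4 without TMM and 9 with it, against 10.3% and 14.8% of all genes. With DESeq2 size factors they also numbered 9, but the share of all genes was not taken there. Of 112 alternatives for the log2 ratios per kb, 96 kept direction and call. Those with tagwise or common dispersion alter the interval alone and could not turn a direction. With coding length the log2 ratio was -0.24 for Gnas over Gnal, 0.67 for Gna13 over Gna12 and -0.86 for Gng3 over Gng2, with intervals that held 0. It was 2.14 for Rgs17 over Rgs19 and 2.54 for Gnao1 over Gnas, with intervals that excluded 0. For Rgs4 over Rgs5 it was 1.37 (-0.02 to 2.76), with an interval that then held 0. The longest coding sequence of Gnas has 3399 bases, against 1062 for Gnao1 and 1344 for Gnal, which sets the coding-length values of both Gnas pairs. With principal transcript length the log2 ratio was 1.03 for Gnao1 over Gnas and 0.93 for Gnas over Gnal, with intervals that held 0. Without length correction it was 0.66 for Gna13 over Gna12, -0.78 for Gng3 over Gng2 and 2.06 for Rgs17 over Rgs19. Principal transcript length, added after the data were seen, gave -0.36 for Rgs17 over Rgs19 and 1.24 (-0.04 to 2.51) for Gnaq over Gna11, whose interval also held 0 with the common dispersion (1.37, -0.07 to 2.80). Gnao1 held 57.5% of the alpha signal with coding and 47.6% with principal transcript length, Gng3 27.5% of the gamma signal with coding length, where Gng2 led, and Rgs4 32.7% of the RGS signal with principal transcript length. With a library left out, the log2 ratio was -0.91 to 0.12 for Gna13 over Gna12, -0.23 to 0.53 for Rgs17 over Rgs19, 1.05 to 1.93 for Gnaq over Gna11 and 1.76 to 3.01 for Rgs4 over Rgs5. It was 2.80 to 4.47 for Rgs7 over Rgs6, 5.86 to 7.34 for Gnb1 over Gnb2 and 3.04 to 4.46 for Rgs4 over Rgs2, which kept their calls. Such intervals are wider by construction. Which exons the authors counted is not known, so the order of genes is limited by the choice of length. Depth was not varied.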
